A study of Mus musculus with 6 samples.

Results

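Genes of smooth muscle cells, pericytes and contractile fibroblasts were followed in mouse hearts that had received either normal or phosphomimetic nexilin. The 10 genes were *Acta2*, *Tagln*, *Myh11*, *Cnn1*, *Myl9*, *Des*, *Pdgfrb*, *Cspg4*, *Mcam* and *Kcnip2*. They were found by gene symbol among the probes that are not controls, which gave 21 of 56605 probes and 10 of 27307 genes. Every one of the 10 genes had at least 1 probe above the background filter described below, so none is missing from the comparison.

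All 6 hearts came from male C57BL/6J mice of the *Clk4*-cKO line, where a tamoxifen-inducible Cre under the α-MHC promoter removes the kinase gene *Clk4* from cardiomyocytes. In one group (NEXN-WT, 3 hearts) an adeno-associated virus had delivered nexilin, an actin-binding protein of the Z-disc, and in the other (NEXN-S437E, 3 hearts) it had delivered nexilin with a glutamate at the serine that CLK4 phosphorylates, both from a CMV promoter, which is not restricted to one cell type. The comparison asks how gene expression differed with the phosphomimetic form, and it holds no *Clk4*-cKO heart without virus and no heart with intact *Clk4*. Total RNA of each myocardium was read on 1 single-colour Agilent 60-mer array.

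Smooth muscle contracts when a light chain of its myosin is phosphorylated and the myosin then pulls on actin filaments, and the genes for this machinery share SRF and its coactivator myocardin as their best known regulators. Pericytes sit on capillaries, are recruited by PDGF-B from the endothelium through the receptor PDGFRB, and carry the proteoglycan NG2 on their surface. In an injured heart, fibroblasts can become myofibroblasts, which take up α-smooth muscle actin and some of the same contractile proteins while they deposit collagen. *Des* and *Kcnip2* also belong to heart muscle, since cardiomyocytes contain desmin and the channel subunit KChIP2.

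The sequences below are the array's own 60-base probes for coding parts of the genes where several probes, or 1 outlying array, shaped what was measured. None of their bases is marked, so all are in lower case, and each reads without a stop codon in at least 1 frame. Positions are on mm9, as in the deposited annotation, all on the minus strand. The *Acta2* probe A_51_P450957 (chr19:34322995-34326249) covers a span of 3255 bases, so it joins exons.
A_51_P450957, Acta2: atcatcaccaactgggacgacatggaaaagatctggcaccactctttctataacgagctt
The 3 *Myh11* probes lie at chr16:14195223-14198147, chr16:14202190-14202249 and chr16:14207835-14208094 in this order, and the first and the last span 2925 and 260 bases and so join exons too.
A_51_P362429, Myh11: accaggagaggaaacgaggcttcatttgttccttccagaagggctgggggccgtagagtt
A_55_P1988531, Myh11: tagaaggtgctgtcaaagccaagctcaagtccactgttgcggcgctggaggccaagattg
A_55_P2734582, Myh11: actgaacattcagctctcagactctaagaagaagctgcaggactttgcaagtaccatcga
The only *Kcnip2* probe is at chr19:45868494-45868553.
A_51_P237255, Kcnip2: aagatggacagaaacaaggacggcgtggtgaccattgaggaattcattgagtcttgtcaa
Coding sequence is very similar among the actins, so signal of other actin transcripts on the *Acta2* probe cannot be told apart from its own here.

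Of the 10 genes, 7 have a promoter in the RefSeq table used (GRCm38.p6), and the 250 bases before their annotated starts were searched for the CArG box, the site bound by SRF, which reads the same way on both strands. *Myl9* was the 1 gene of the 7 with an exact match, against 1.47% of all 32851 promoters of this length. When 1 of the central letters was allowed to be C or G, *Acta2* and *Myl9* had matches, against 7.24% of all promoters. Both promoters are printed because these are the only ones with a match, with the matches in capitals. The *Acta2* sequence is the minus strand of chr19:34255374-34255623, and its matches, each with 1 central C or G, begin 84 and 34 bases before the start.
Acta2 promoter: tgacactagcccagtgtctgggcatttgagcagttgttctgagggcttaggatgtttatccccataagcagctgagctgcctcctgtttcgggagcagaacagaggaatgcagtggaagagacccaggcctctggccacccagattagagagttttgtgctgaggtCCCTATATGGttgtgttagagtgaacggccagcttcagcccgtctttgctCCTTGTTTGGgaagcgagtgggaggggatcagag
The *Myl9* sequence is the plus strand of chr2:156775214-156775463, where the exact match begins 161 bases before the start and a match with 1 central C or G begins 99 bases before it.
Myl9 promoter: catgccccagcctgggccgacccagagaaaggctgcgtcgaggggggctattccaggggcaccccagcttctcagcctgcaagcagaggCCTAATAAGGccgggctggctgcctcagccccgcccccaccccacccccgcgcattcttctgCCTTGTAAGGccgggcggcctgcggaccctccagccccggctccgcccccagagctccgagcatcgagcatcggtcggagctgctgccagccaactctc
A match of letters describes the window and says nothing of whether SRF binds there in these hearts.

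Signals are given as log2 over the array's own 75th percentile, taken over the probes detected (well above background) on each of the 6 arrays, so a value of 0 is the signal at that percentile and 1 is a doubling. Levels of different probes are not set against each other. Of the 21 probes, 14 were well above background on all 6 arrays and were tested, 6 were not well above background on any array (from −8.74 to −6.39) and 1 was above it on a single NEXN-S437E array. Each gene is represented by its tested probe of highest mean signal. The arrays shared 1 slide and 1 scan, and between 41.9% of their spots, on NEXN-S437E replicate 1, and 47.8%, on NEXN-WT replicate 1, were well above background. NEXN-WT replicate 1 differed from the other arrays of its group by 0.40 on average, the largest such value, against 0.24 to 0.34 for the other 5 arrays. Slide row 1 held NEXN-WT replicates 1 to 3 together with the first NEXN-S437E array, and slide row 2 held NEXN-S437E replicates 2 and 3. The array does not check the deletion, since *Clk4* differed by a log2 fold change of 0.06 ± 0.18 (SE) in hearts that all carry it, and *Nexn* differed by −0.06 and 0.06 on its 2 probes in hearts that all received it.

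None of the 10 genes changed at the adjusted threshold. With the Benjamini-Hochberg adjustment over all tested probes (limma), 0 of 10 passed 0.05, against 0.182% of the 13747 genes tested, and 0 of 10 passed the study's thresholds of a 2-fold difference and an unadjusted p of 0.05, against 3.05% of all genes. At an unadjusted p of 0.05 alone, 2 of 10 were lower with NEXN-S437E, *Pdgfrb* and *Myl9*, against 10% of all genes, and 0 of 10 were higher, against 7.83%. That count of 2 was 0 without NEXN-S437E replicate 2 (6.81% of all genes), or with the all-probe percentile and without NEXN-WT replicate 1 (6.97%). It was 1, *Pdgfrb*, with the replicate number as a block (8.96% of all genes), with the percentile over all probes (7.93%), with no filter on dim probes (4.6%), and without NEXN-WT replicate 1 (8.24%), NEXN-WT replicate 2 (10.1%) or NEXN-S437E replicate 3 (6.7%). It was 3 without NEXN-WT replicate 3 (12%), and 4 with array weights (12.3%) or without NEXN-S437E replicate 1 (8.65%). The unadjusted p of *Myl9* missed 0.05 under 9 of 21 alternatives and that of *Pdgfrb* under 3 (limma), the slide row block among them. That block sets NEXN-S437E replicate 1 alone against the 3 NEXN-WT arrays, so no p is given for it. Under the rest, these p ran from 0.0603 to 0.126 for *Myl9* and from 0.0566 to 0.0754 for *Pdgfrb* (limma). The same 2 genes had all 3 NEXN-S437E arrays below all 3 NEXN-WT arrays, a pattern shown by 14.8% of all genes, and 0 of 10 had them all above, which 15.2% of all genes showed. The log2 fold change was below 0 for 7 genes and above 0 for 3, and its median was −0.17, beside −0.0042 over all genes. The 95% interval of each gene's brightest probe lay between −1 and 1, but that of 1 further *Myh11* probe reached −1.36. In bulk tissue, fewer cells of a type and less RNA per cell cannot be told apart.

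Among the contractile proteins, *Acta2* encodes α-smooth muscle actin. Its brightest probe read 2.92, 3.85 and 3.52 with NEXN-WT and 3.80, 2.91 and 3.46 with NEXN-S437E. Each group thus held 1 array near 2.9 and the groups overlapped over their whole range. The log2 fold change was −0.04 (SE 0.30, 95% interval −0.74 to 0.66, adjusted p = 0.954, limma). The exon-joining probe shown above gave the same difference of −0.04 with another spread. It read 0.42, 1.94 and 1.73 with NEXN-WT but 1.32, 1.34 and 1.33 with NEXN-S437E, so the SD was 0.82 in the first group and 0.01 in the second. The third tested *Acta2* probe differed by −0.07 (SE 0.21). On all 3 probes NEXN-WT replicate 1 was the lowest array of its group, and without it the difference of the brightest probe was −0.30.

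*Tagln*, which encodes the actin-bundling protein transgelin (SM22α), read 3.07, 2.98 and 2.76 with NEXN-WT and 3.05, 2.52 and 2.61 with NEXN-S437E. The first NEXN-S437E heart was at the level of the NEXN-WT hearts and the other two were below all of them. The log2 fold change was −0.21 (SE 0.18, adjusted p = 0.565, limma).

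*Myh11* encodes the heavy chain of smooth muscle myosin, the motor of the contractile apparatus. Its brightest probe read −1.83, −1.71 and −1.78 with NEXN-WT, with an SD of 0.06, and −1.65, −2.56 and −2.22 with NEXN-S437E, with an SD of 0.46. The NEXN-WT hearts lay close together while the NEXN-S437E hearts lay on both sides of them. The difference was −0.37 (SE 0.23, 95% interval −0.91 to 0.17, adjusted p = 0.438, limma). Both other tested probes had the same order of arrays in the NEXN-S437E group. A_55_P1988531 read −2.66, −3.71 and −3.34 there, against −3.15 to −2.79 with NEXN-WT, and differed by −0.24 (SE 0.27). A_55_P2734582 read −3.94, −5.43 and −5.08, against −4.51 to −4.06, and differed by −0.50 (SE 0.36). Probes of 1 gene measure the same 6 RNA samples, so they repeat the array order without adding hearts.

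*Cnn1* encodes calponin, which restrains the myosin motor. It read 0.05, 0.14 and −0.49 with NEXN-WT and −0.19, −0.74 and −0.67 with NEXN-S437E. Here 1 NEXN-S437E array lay inside the NEXN-WT range and the other two just under it. The log2 fold change of −0.43 was the most negative of the 10 and did not pass the test (SE 0.23, 95% interval −0.96 to 0.09, adjusted p = 0.371, limma).

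*Myl9* encodes the regulatory light chain whose phosphorylation starts contraction. It read 2.65, 2.70 and 2.49 with NEXN-WT and 2.45, 2.11 and 2.14 with NEXN-S437E. The groups did not overlap, with the nearest arrays 2.49 and 2.45. The log2 fold change was −0.38 (SE 0.15, 95% interval −0.73 to −0.03), which is 1.30-fold lower, and the adjusted p was 0.275 (limma). On the log2 scale of the deposited normalized values the arrays read 12.74, 12.69 and 12.43 against 12.34, 12.01 and 12.06, again without overlap.

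**Figure D1:**
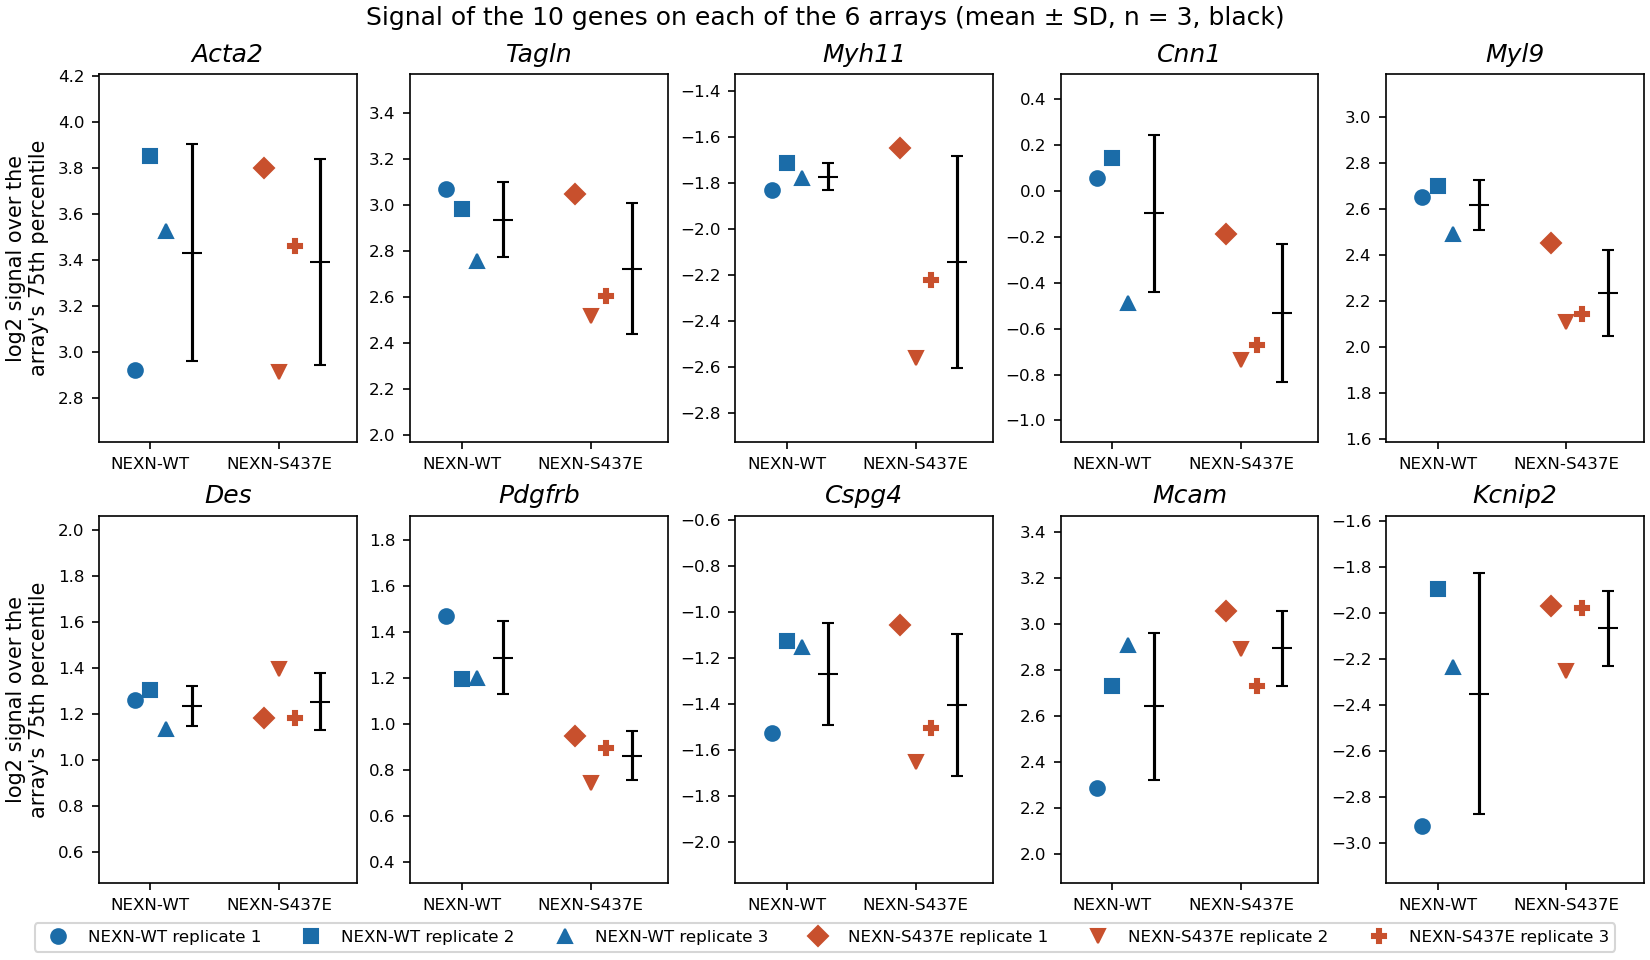
Log2 signal over the array's 75th percentile (vertical axes, each 1.6 units high) for the brightest tested probe of the 10 genes, with NEXN-WT in blue and NEXN-S437E in red, 1 symbol per array and the mean ± SD of 3 arrays in black. Only *Myl9* and *Pdgfrb* show no overlap, and the red diamond, NEXN-S437E replicate 1, stands above the other two red symbols in every panel except *Des*.

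*Des* encodes desmin, the intermediate filament that links Z-discs in cardiomyocytes and is also made by smooth muscle and pericytes. It read 1.26, 1.30 and 1.14 with NEXN-WT and 1.18, 1.39 and 1.18 with NEXN-S437E. The arrays were intermixed, and the difference of 0.02 had the narrowest interval of the 10 (SE 0.13, 95% interval −0.29 to 0.33, adjusted p = 0.948, limma). The second *Des* probe was not above background on any array. Of 7 other intermediate filament genes and desmin partners, 0 passed the adjusted threshold and 0 an unadjusted p of 0.05. Their median log2 fold change was 0.0034, or −0.075 without NEXN-WT replicate 1. The 3 with the smallest p were *Vim*, the vimentin gene of mesenchymal cells (−0.35, SE 0.19), *Cryab*, which encodes the desmin chaperone αB-crystallin (0.35, SE 0.21), and *Dsp*, which encodes desmoplakin (0.09, SE 0.14). Without NEXN-WT replicate 1 these were −0.17, 0.12 and 0.08.

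Of the surface molecules of mural cells, *Pdgfrb*, the PDGF receptor β, read 1.47, 1.20 and 1.20 with NEXN-WT and 0.95, 0.74 and 0.90 with NEXN-S437E. All 3 NEXN-S437E hearts were lower than all 3 NEXN-WT hearts, and the gap between the nearest arrays, 1.20 and 0.95, was larger than the SD of either group (0.16 and 0.11). The log2 fold change was −0.43 (SE 0.14, 95% interval −0.76 to −0.10), which is 1.34-fold lower, with an adjusted p of 0.227 (limma), the smallest of the 10. On the deposited log2 scale the arrays read 11.49, 11.15 and 11.14 against 10.86, 10.68 and 10.83. An exact permutation test (two-sided) of 3 against 3 arrays gives a p of 0.1 at the least.

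*Cspg4* encodes NG2. It read −1.52, −1.13 and −1.15 with NEXN-WT and −1.06, −1.65 and −1.50 with NEXN-S437E. The highest and the lowest of the 6 arrays both belonged to NEXN-S437E, and the difference was −0.14 (SE 0.20, adjusted p = 0.742, limma). *Mcam* encodes CD146, an adhesion molecule of mural and endothelial cells. It read 2.29, 2.73 and 2.91 with NEXN-WT and 3.06, 2.89 and 2.73 with NEXN-S437E, a difference of 0.25 (SE 0.19, adjusted p = 0.520, limma). NEXN-WT replicate 1 was the lowest of the 6 arrays for *Mcam*, and without it the difference was 0.07.

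The ligands and the other receptors of the PDGF family gave 0 of 6 genes past the adjusted threshold. *Pdgfb*, the gene of the ligand that endothelium uses to recruit pericytes, read 1.58, 2.11 and 2.11 with NEXN-WT and 2.29, 1.72 and 1.89 with NEXN-S437E, a log2 fold change of 0.03 (SE 0.22) across overlapping groups, or −0.14 without NEXN-WT replicate 1. The 3 genes of the family with the smallest p were *Pdgfrl* (−2.21, SE 0.46, adjusted p = 0.144, limma), *Pdgfra*, the receptor of fibroblasts (−0.94, SE 0.26, adjusted p = 0.185), and *Pdgfa* (0.07, SE 0.24, or −0.083 without NEXN-WT replicate 1). *Pdgfrl* and *Pdgfra* did not overlap between the groups, with NEXN-WT replicate 1 the highest array for both, and without it the differences were −1.61 and −0.70.

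Other pericyte and mural genes went both ways. Of 13, 0 passed the adjusted threshold, 3 were lower and 1 was higher at an unadjusted p of 0.05, and the median log2 fold change was 0.03, or −0.12 without NEXN-WT replicate 1. *Heyl*, a Notch target of mural cells, read −0.06, −0.18 and −0.28 with NEXN-WT and −0.81, −0.70 and −0.57 with NEXN-S437E (−0.52, SE 0.14, adjusted p = 0.171, limma). *Tbx18*, a transcription factor of mural cells, likewise had no overlap between the groups (−0.68, SE 0.21, adjusted p = 0.208, and −0.45 without NEXN-WT replicate 1). *Abcc9*, which encodes the SUR2 subunit of KATP channels in pericytes and muscle, had all 3 NEXN-S437E arrays above NEXN-WT (0.46, SE 0.15, adjusted p = 0.227). *Rgs5*, a common pericyte marker outside the 3 with the smallest p, differed by −0.16 (SE 0.14), with NEXN-WT arrays from 1.40 to 1.48 and NEXN-S437E arrays from 1.08 to 1.44.

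*Kcnip2* encodes KChIP2, the calcium-binding subunit that carries Kv4 channels to the cardiomyocyte membrane for the transient outward current. It read −2.93, −1.90 and −2.24 with NEXN-WT and −1.97, −2.26 and −1.98 with NEXN-S437E. The difference of 0.29 (SE 0.26, 95% interval −0.32 to 0.90, adjusted p = 0.591, limma) rested on NEXN-WT replicate 1, the lowest of the 6 arrays, and was −0.00035 without it. Of 11 genes for potassium channel subunits and their Iroquois regulators that were detected on all 6 arrays, 0 passed the adjusted threshold, 1 was lower and 1 higher at an unadjusted p of 0.05, and 9 had a log2 fold change above 0. The 3 with the smallest p were *Kcnab1*, an accessory subunit (−0.52, SE 0.18), *Kcnd2*, which encodes the partner channel Kv4.2 (0.56, SE 0.20), and *Irx3*, a regulator of conduction genes (0.28, SE 0.12), with adjusted p of 0.231, 0.241 and 0.308 (limma). *Kcnd3*, which encodes the other Kv4 channel that KChIP2 binds, differed by 0.31 (SE 0.14). Without NEXN-WT replicate 1, *Kcnab1* was at −0.35 and *Kcnd2* at 0.37, and the median of the 11 genes was 0.12 in place of 0.28.

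The NEXN-S437E hearts differed among themselves in the same direction for nearly all of the 10 genes. Replicate 1 was above both replicate 2 and replicate 3 for 9 of 10, the exception being *Des*, against 44.6% of all genes. The same order held for 6 of 7 intermediate filament genes and desmin partners and for 14 of 21 other smooth muscle genes, but for 1 of 13 other pericyte and mural genes. In the remaining lists it held for 27.3% (cardiomyocyte markers) to 58.3% (endothelial markers) of the genes. For the 5 contractile genes, the mean of replicates 2 and 3 was below the NEXN-WT mean for 5 of 5, by a log2 difference of −0.24 for *Acta2*, −0.37 for *Tagln*, −0.62 for *Myh11*, −0.61 for *Cnn1* and −0.49 for *Myl9*. Replicate 1 was above the NEXN-WT mean for 3 of these 5, by 0.37 for *Acta2*, 0.11 for *Tagln* and 0.12 for *Myh11*, and below it by −0.09 for *Cnn1* and −0.17 for *Myl9*. *Cspg4* had the same split, with 0.21 for replicate 1 and −0.31 for the others.

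This split follows the slide rows. Slide row 1 alone holds both groups, with 1 NEXN-S437E array, and there the median difference over the 10 genes was 0.12. For replicates 2 and 3, in slide row 2, the median was −0.34, and the row and the hearts themselves cannot be told apart. NEXN-S437E replicate 1 was also the dimmest of the 6 arrays, with a scanner signal at the 75th percentile of 692 against 876 to 1519, and had the fewest spots well above background, 41.9% against 43.4% to 47.8%. The part of this in the split was not tested. Over all genes the corresponding medians were 0.016 and −0.0079. *Pdgfrb* was the gene of the 10 with the least difference between the rows among those lower with NEXN-S437E, at −0.34 in slide row 1 and −0.47 in slide row 2. *Myl9* kept its direction in slide row 1, at less than the −0.38 seen over all arrays.

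**Figure D2:**
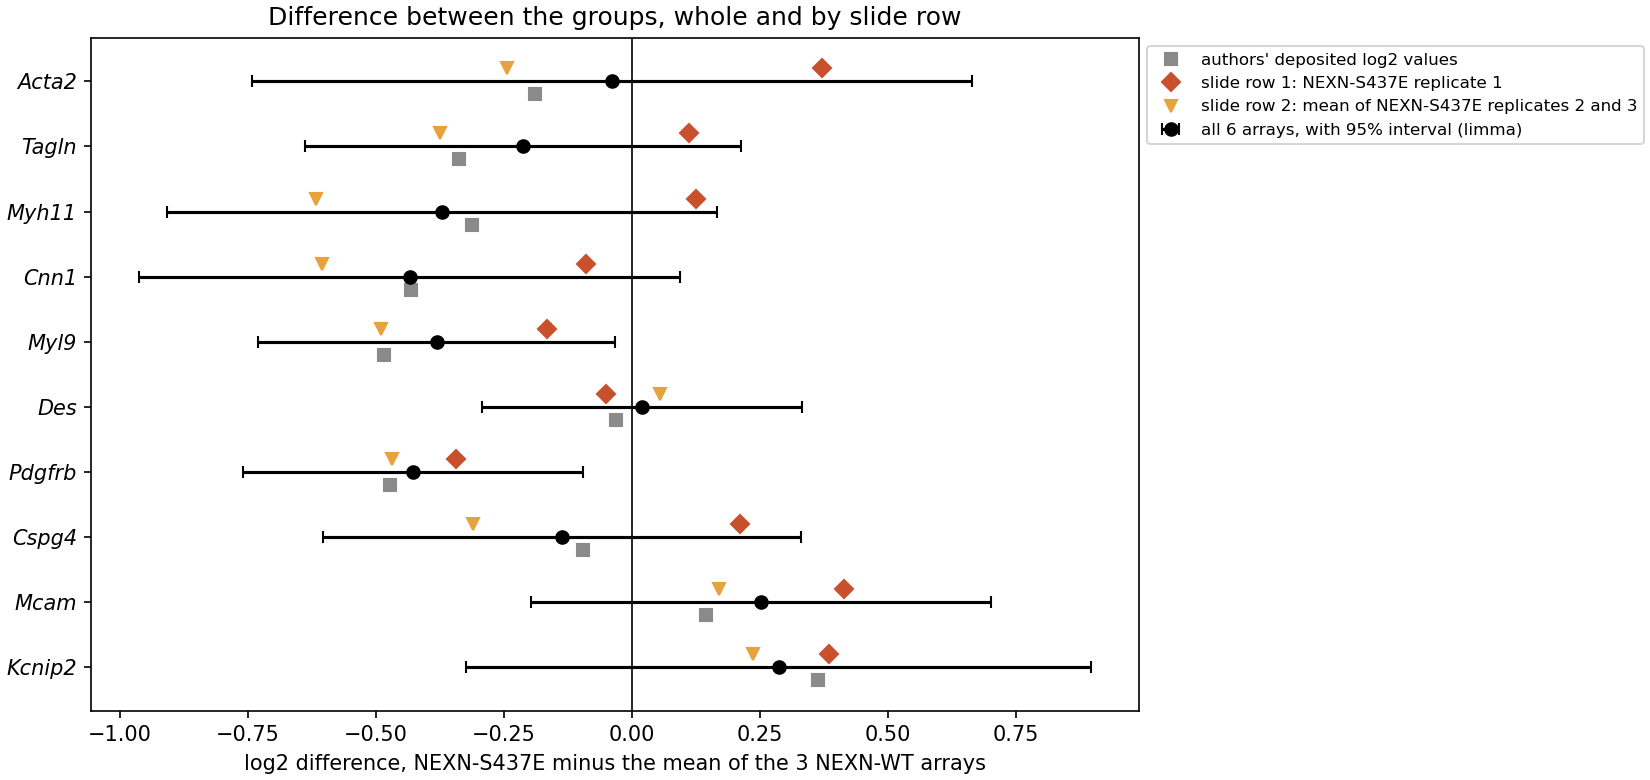
Log2 difference between NEXN-S437E and the mean of 3 NEXN-WT arrays (horizontal axis) for the 10 genes, with the limma estimate and its 95% interval in black, the deposited log2 values as grey squares, NEXN-S437E replicate 1 (slide row 1) as red diamonds and the mean of replicates 2 and 3 (slide row 2) as yellow triangles. The intervals of *Myl9* and *Pdgfrb* do not reach 0, and the diamonds lie to the right of the triangles for every gene except *Des*.

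*Pdgfrb*, *Cnn1* and *Myl9* had a fold change below 0 under all 21 alternatives, from −0.47 to −0.30, from −0.63 to −0.09 and from −0.49 to −0.17, and *Mcam* had one above 0 under all 21, from 0.0028 to 0.41. Some of the 21, such as the t-test, the replicate block, the intensity trend and the other filters, leave these fold changes as they are. Their sign could not change there. *Acta2* and *Des*, which lay nearest to 0, changed sign under 5 and 6 alternatives. No gene of the 10 passed the adjusted threshold under any of the 21. Without NEXN-S437E replicate 1, 5 of the 10 genes had both remaining NEXN-S437E arrays below all 3 NEXN-WT arrays, against 22.6% of all genes, and 0 had them above. With all arrays, 2 of the 10 were below, against 14.8%.

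**Figure D3:**
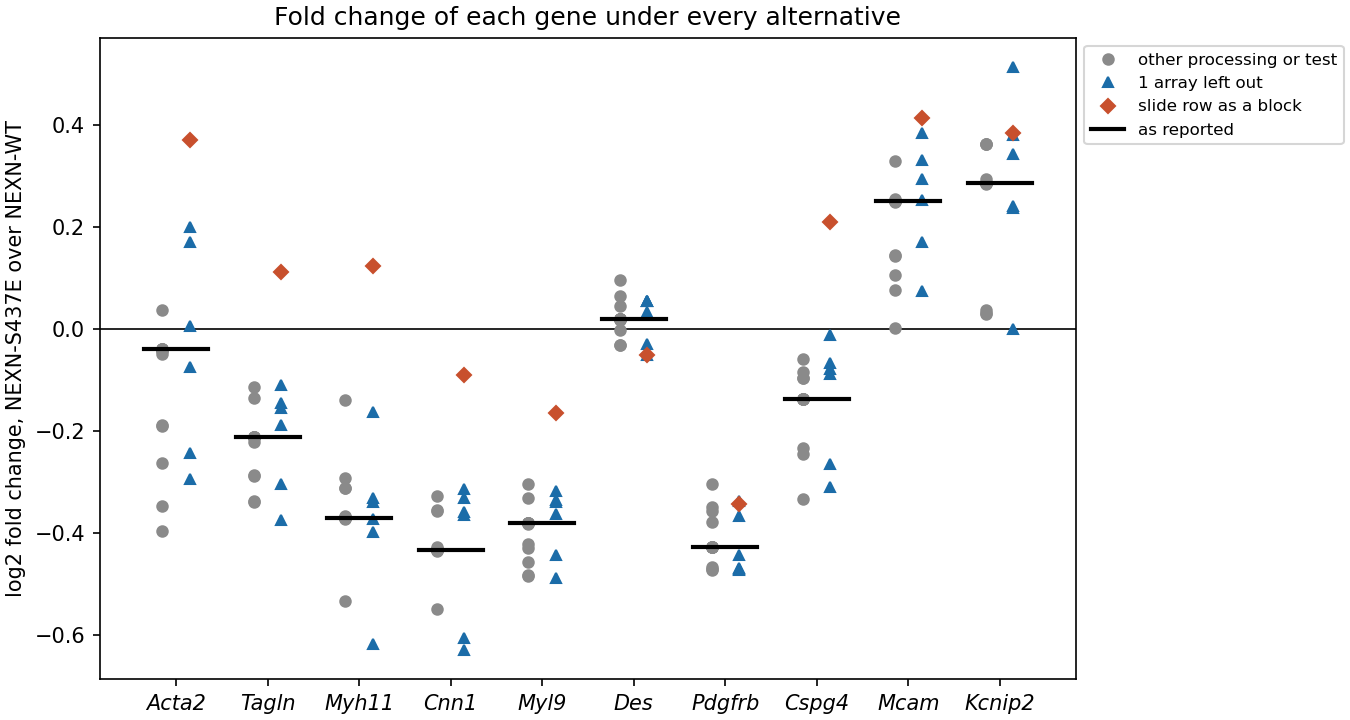
Log2 fold change of each of the 10 genes (vertical axis) as reported (black bar), under other processing or another test (grey circles), with 1 array left out (blue triangles) and with the slide row as a block (red diamonds). *Pdgfrb* spans the narrowest range away from 0, from −0.47 to −0.30, while *Acta2* lies on both sides of 0.

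Other smooth muscle genes were spread around 0. Of 21 tested contractile and SRF-myocardin genes, 0 passed the adjusted threshold, 13 had a log2 fold change below 0 and 8 above, and the median was −0.09. *Csrp2*, which encodes a LIM protein of smooth muscle and of activated fibroblasts, read 2.78, 1.88 and 1.89 with NEXN-WT and 1.24, 0.98 and 1.00 with NEXN-S437E (−1.11, SE 0.26, adjusted p = 0.152, limma). It was the 1 gene of the list with an unadjusted p under 0.05. *Cald1*, which encodes caldesmon, and *Tpm2*, which encodes β-tropomyosin, were next (−0.45, SE 0.21, and −0.25, SE 0.13), at −0.22 and −0.21 without NEXN-WT replicate 1. Of the regulators themselves, *Srf* was at −0.07 (SE 0.20) and *Myocd*, the myocardin gene, at 0.24 (SE 0.19), and without NEXN-WT replicate 1 these were −0.27 and 0.059.

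Matrix and signalling genes of activated fibroblasts, cells that can also make *Acta2* and *Tagln*, were set beside the 10 genes. Of 15 tested, *Cthrc1* passed the filter through NEXN-WT, with 1 NEXN-S437E array well above background, and is left out of what follows. Of the other 14, 1 passed the adjusted threshold, 12 were lower at an unadjusted p of 0.05, and the median log2 fold change was −1.74, or −1.30 without NEXN-WT replicate 1, beside −0.17 and −0.28 for the 10 genes. *Cilp*, a matrix gene of myofibroblasts, fell by 3.88 on the log2 scale (SE 0.47, adjusted p = 0.043, limma), from 2.10, 0.26 and 0.26 to −2.89, −2.94 and −3.21. The mean level of these 14 genes was 2.15 on NEXN-WT replicate 1, 0.58 and 0.41 on the other two NEXN-WT arrays, and −1.14 to −1.06 on the NEXN-S437E arrays. On NEXN-WT replicate 1, the array with the highest matrix signal, *Acta2* was the lowest of its group and *Tagln* the highest (3.07 against 2.98 and 2.76). The difference between the lists was not tested.

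Resident fibroblast markers gave 6 of 10 lower at an unadjusted p of 0.05 and 0 past the adjusted threshold, with a median of −0.73 (−0.45 without NEXN-WT replicate 1). *Mfap5*, *Col15a1* and *Pdgfra* had the smallest p, at −1.46 (SE 0.33), −1.55 (SE 0.40) and −0.94 (SE 0.26). Their mean level ranged from 1.66 to 2.38 with NEXN-WT and from 1.24 to 1.29 with NEXN-S437E. *Pdgfrb* is also made by fibroblasts, and the part of these cells in its difference was not tested.

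Cardiomyocyte markers, which mark the labelled tissue, were above background on all 6 arrays, and their mean was 4.70 to 4.99 with NEXN-WT and 5.13 to 5.25 with NEXN-S437E. All 11 had a fold change above 0, 2 of them at an unadjusted p of 0.05, with a median of 0.34 (0.24 without NEXN-WT replicate 1). That array was the lowest of the 6 for 9 of the 11, against 31.6% of all genes. Without it *Actc1* was below 0, at −0.03. *Myh6*, *Tnni3* and *Actn2* led with 0.50, 0.52 and 0.29 (SE 0.15, 0.21 and 0.14), and *Tnni3* was at 0.29 without NEXN-WT replicate 1. Among hypertrophy markers, *Nppa*, which encodes the atrial natriuretic peptide, fell by 1.47 on the log2 scale (SE 0.16, adjusted p = 0.030, limma), 4 of 6 markers were lower at an unadjusted p of 0.05, and the median was −1.06. Endothelial markers gave 0 of 12 past the adjusted threshold, with a median of −0.03 (−0.13 without NEXN-WT replicate 1). The endothelial genes with the smallest p were *Cldn5*, *Tek* and *Esam* (−0.47, −0.24 and 0.48, SE 0.15, 0.14 and 0.38).

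Macrophage markers gave 0 of 9 past the adjusted threshold and a median of −0.07, led by *Fcgr1*, *Adgre1* and *Cd14* (−0.82, −0.55 and −0.49, SE 0.21, 0.26 and 0.39). Without NEXN-WT replicate 1 these were −0.66, −0.27 and −0.011, and the median was 0.0011. Of the 6 T cell markers detected on all 6 arrays, 3 passed the adjusted threshold, with a median of −1.95 (−2.17 without NEXN-WT replicate 1). *Cd3e* was at −0.62 (SE 0.21, adjusted p = 0.231, limma), and *Cd4* was the 1 marker above 0, at 0.15 (SE 0.15). *Ccl5*, *Lck* and *Cd3d* fell by 2.80, 2.14 and 2.56 on the log2 scale (SE 0.25, 0.20 and 0.27, adjusted p of 0.012, 0.012 and 0.027, limma). *Cd3g* passed the filter through NEXN-WT alone and no NEXN-S437E array gave a signal well above background, so no p is given for it. Against the dimmest signals that were above background, it was lower by at least 2.30-fold. The part of any of these cell types in the values of the 10 genes was not tested.

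**Figure D4:**
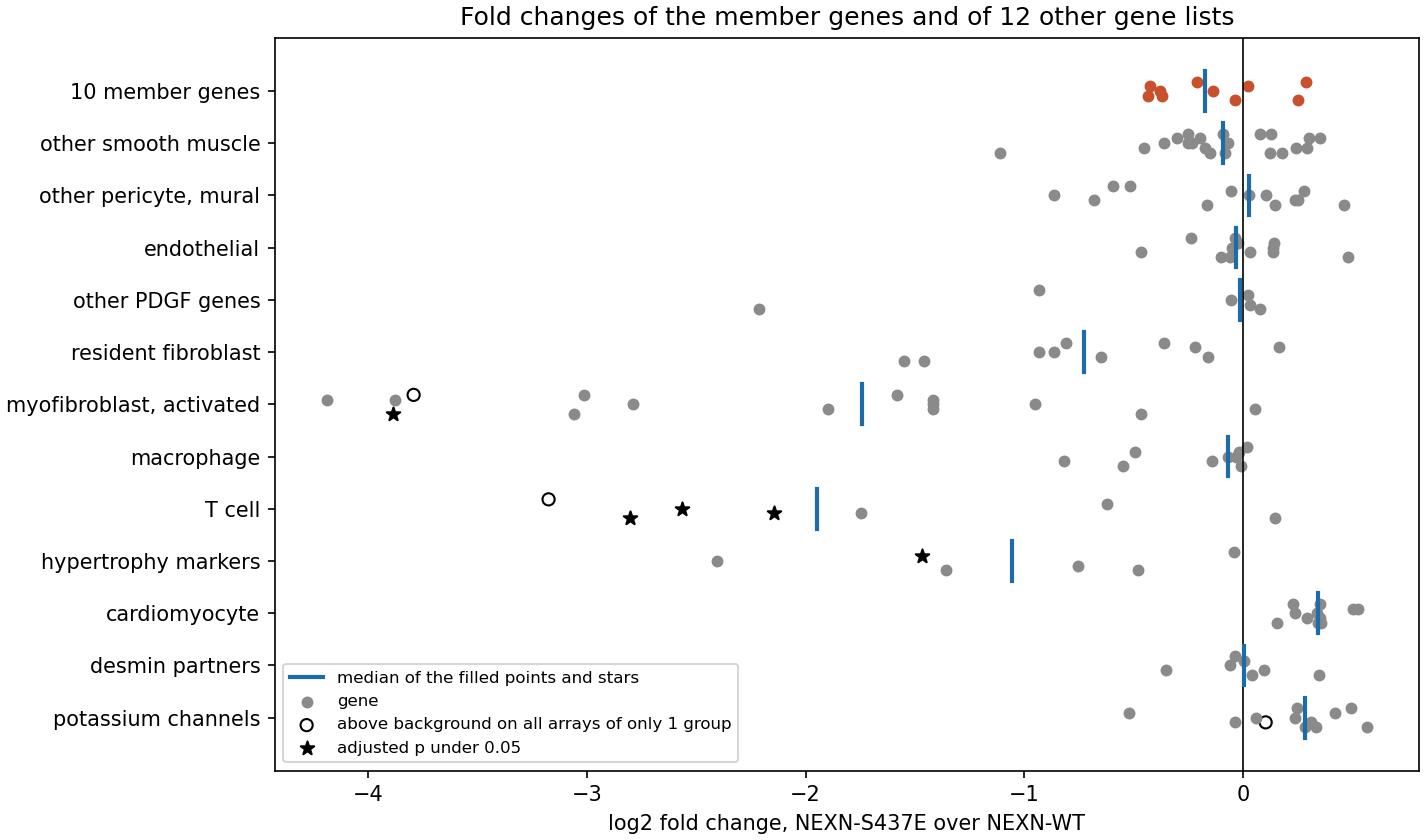
Log2 fold change (horizontal axis, NEXN-S437E over NEXN-WT) of each tested gene of the 10 (red) and of 12 other lists (grey), with stars for an adjusted p under 0.05 and a blue bar at the median of the filled points and stars of each list. The 10 genes lie within 0.43 below and 0.29 above 0, near the endothelial and other smooth muscle genes, while most genes of the myofibroblast and T cell lists lie below −1. The open circles are *Cthrc1*, *Cd3g* and *Irx5*, which were above background on all arrays of NEXN-WT but not of NEXN-S437E.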

How the data were processed

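Total RNA of 6 *Clk4*-cKO hearts was hybridised to 1-colour Agilent arrays. The authors deposited the intensity of each spot from Feature Extraction 10.7.1.1, background-subtracted and not normalized between arrays, and normalized log2 values, 1 column per array, which when sorted are the same in every column (the mark of quantile normalization). The software for that step is not given in the sources used here. Probe positions are mm9.

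From the processed intensity, control and outlier spots were left out, spots of a probe were averaged on the log2 scale, and each array's 75th percentile was subtracted, taken over probes detected on every array because under 50% of spots were detected. Probes detected on all 3 arrays of either group (22998 probes, 13747 genes) were compared with limma 3.58.1 (lmFit, eBayes, R 4.3.3), with Benjamini-Hochberg adjustment over all of them. Intensities carry no depth, so the 3 arrays per group limit the precision. The 3 arrays of a group are 3 animals per the study's legends.

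The members and gene lists were chosen with earlier results of these data known. Named are the members and, from each other list, the genes past the adjusted p or else the 3 with the smallest p. *Pdgfb*, *Rgs5*, *Srf*, *Myocd*, *Kcnd3*, *Cd3e*, *Cd4*, *Actc1* and *Nppb* were added after their values had been seen. The alternatives were other scalings (all probes, quantile, the deposited values), normexp with an offset of 50, other filters, outlier spots kept, the methods' t-test, a replicate block, a slide row block, array weights, an intensity trend, the mean of a gene's probes and each array left out; 2 more, which leave out NEXN-WT replicate 1 under another scaling, were added after seeing the data. The fit was tested on simulated data. Promoters are from RefSeq (GRCm38.p6). Figures were drawn with Python 3.11.15, pandas 2.3.3 and matplotlib 3.10.9.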

Additional observations from a re-analysis of the deposited data

How the results depend on the processing

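The count of the 10 genes past the adjusted p was 0 under all 21 alternatives, as was the count past 2-fold and an unadjusted p of 0.05, so these alternatives did not change either. The number of all tested probes past the adjusted p, 34, depended on the setting. It was 6 without a filter on dim probes, 18 with the filter on all 6 arrays and 0 with the methods' t-test (3121 probes at an unadjusted p of 0.05). It was 496 with array weights, and 7 to 127 with 1 array left out, the highest without NEXN-WT replicate 1. Without that array it was 121 on the deposited values and 135 with the percentile over all probes. The replicate numbers did not pair the samples (correlations of −0.15, −0.03 and −0.18 between same-numbered arrays), and with the replicate number as a block 12 probes passed and the count of the 10 genes stayed 0.

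The median log2 fold change of the 10 genes, −0.17, was −0.10 with the percentile over all probes, −0.25 with quantile normalization, −0.25 on the deposited values and −0.34 with array weights. With the slide row as a block, which sets NEXN-S437E replicate 1 alone against the NEXN-WT arrays, it was 0.12. Leaving out 1 array gave −0.34 to −0.080. Without NEXN-WT replicate 1 it was −0.30 on the deposited values and −0.25 with the percentile over all probes. The count without overlap, 2, was 2 to 5 with 1 array left out, while the share of all genes without overlap went from 30.1% to between 35.8% and 44.7%. The genes of the 10 without overlap were all lower with NEXN-S437E, except 1 of the 4 found when NEXN-WT replicate 3 was left out. *Acta2* changed sign with the percentile over all probes (0.038), the slide row block (0.37), and with 1 array left out (−0.30 to 0.20, above 0 without NEXN-WT replicate 2, NEXN-WT replicate 3 or NEXN-S437E replicate 2). *Des* did so with quantile normalization (−0.031), the deposited values (−0.031), the slide row block (−0.050), and with 1 array left out (−0.051 to 0.056, below 0 without NEXN-WT replicate 3 or NEXN-S437E replicate 2), and on the deposited values without NEXN-WT replicate 1 (−0.0026). *Tagln* (0.11), *Myh11* (0.12) and *Cspg4* (0.21) changed sign with the slide row block, and *Kcnip2* without NEXN-WT replicate 1 (−0.00035 to 0.51 with 1 array left out). The cause of these changes was not tested.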
